A study of Mus musculus with 9 samples.

Results

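Glycolysis, gluconeogenesis and the transcriptional response to low oxygen were followed by 35 listed names, of which 34 are gene symbols. A name was measured where a probe set (a group of array probes for 1 transcript) carries it as its only gene symbol, and a gene with several was read from the brightest. This gave 30 genes of the 22180 measured in all. Gpi1 and Eno1 matched no such probe set, Aldoa and Ankrd37 were found only on probe sets that carry several symbols and were not used, and the entry "P4ha1-excluded" is not a gene symbol. The study profiled mouse embryonic stem cells with a transgene (Afp::GFP) that reports on Afp by green fluorescent protein, driven by the Afp promoter. Afp encodes alpha-fetoprotein, a plasma protein of yolk sac endoderm and fetal liver. The cells were grown as embryoid bodies, cell aggregates that form tissue of all germ layers, on gelatin in IMDM with serum, transferrin, ascorbic acid and PFHM. Afp-positive cells were collected by flow cytometry after 4, 7 and 21 days, with 3 arrays per day. The sources used here do not give strain, clone or oxygen tension, and ascorbic acid was in the medium of every group.

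Glycolysis splits glucose to pyruvate. Its steps are run by isozymes from separate genes, such as the liver, muscle and platelet forms of phosphofructokinase. Pyruvate is either reduced to lactate by lactate dehydrogenase or used inside the mitochondrion by pyruvate dehydrogenase, which the PDK kinases switch off. Gluconeogenesis runs the path backwards in liver and kidney, with its own enzymes at the irreversible steps. When oxygen is low, hypoxia-inducible factors escape destruction by the prolyl hydroxylases (the Egln genes) and turn on glycolytic genes, PDK and the hydroxylases themselves through a short DNA element.

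The core letters of that element, ACGTG and GCGTG, were searched on both strands of the 250 bases before annotated transcription starts in RefSeq (GRCm38.p6). Windows were found for 29 of the 30 genes and Ndrg1 had no entry. Windows of 5 of the 13 genes called higher on day 7 than on day 4 are printed in the direction of transcription, with every match in capitals. All 5 hold a match, whereas the windows of Tpi1, Eno2 and Pklr, also called higher, held none. Matches were also found for Pfkfb3 and Ldhb, which were called lower. Of the genes not called that had a window, all but Fbp1, G6pc and Pck1 held a match too. A match was thus not particular to the genes called higher. A match on the opposite strand appears as CACGT for ACGTG and as CACGC for GCGTG. Where CACGTG is printed, both strands match in overlap.

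The Bnip3 window is chr7:138909507-138909756, minus strand, with matches in 4 places.
Bnip3: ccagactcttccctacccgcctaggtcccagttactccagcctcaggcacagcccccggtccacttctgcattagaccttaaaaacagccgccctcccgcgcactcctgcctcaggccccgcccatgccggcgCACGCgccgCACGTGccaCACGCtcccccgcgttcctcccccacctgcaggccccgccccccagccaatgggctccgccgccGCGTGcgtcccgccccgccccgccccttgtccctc
The Egln1 window is chr8:124949255-124949504, minus strand.
Egln1: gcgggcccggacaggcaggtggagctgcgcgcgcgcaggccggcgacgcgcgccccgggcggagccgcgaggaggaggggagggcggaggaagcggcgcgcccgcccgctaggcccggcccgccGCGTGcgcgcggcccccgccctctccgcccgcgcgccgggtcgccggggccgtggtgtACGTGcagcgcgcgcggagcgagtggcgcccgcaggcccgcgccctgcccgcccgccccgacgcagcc
The Egln3 window is chr12:54203875-54204124, minus strand, and its match is the farthest from the start of those printed.
Egln3: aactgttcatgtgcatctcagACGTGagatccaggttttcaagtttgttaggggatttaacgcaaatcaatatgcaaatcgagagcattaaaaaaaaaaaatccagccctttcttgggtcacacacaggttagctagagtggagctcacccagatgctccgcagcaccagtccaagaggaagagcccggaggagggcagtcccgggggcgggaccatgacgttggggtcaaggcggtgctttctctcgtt
The Pgk1 window is chrX:106186850-106187099, plus strand.
Pgk1: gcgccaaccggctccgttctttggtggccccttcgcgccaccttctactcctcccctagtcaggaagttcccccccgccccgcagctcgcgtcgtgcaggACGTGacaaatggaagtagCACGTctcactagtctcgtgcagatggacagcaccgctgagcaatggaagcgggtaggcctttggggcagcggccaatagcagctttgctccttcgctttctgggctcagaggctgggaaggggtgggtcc
The Ldha window shown is chr7:46845554-46845803, plus strand, the upstream of its annotated starts, with CACGTG in 2 places.
Ldha: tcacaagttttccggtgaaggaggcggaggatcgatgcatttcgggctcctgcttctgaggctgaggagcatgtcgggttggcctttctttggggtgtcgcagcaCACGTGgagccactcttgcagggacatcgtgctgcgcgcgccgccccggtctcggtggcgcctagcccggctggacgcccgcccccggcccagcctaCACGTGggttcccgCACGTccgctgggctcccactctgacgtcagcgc

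The Bnip3 match nearest the start lies 31 to 35 bases before it, and the CACGTG of that window 103 to 108 bases before it. In Ldha the nearest match lies 30 to 34 bases before the start. Over all 40 windows of the measured genes, ACGTG was found in 15 (37.5%) and GCGTG in 18 (45%), against 16.6% and 28.2% of all 32851 mouse windows in the table. Either was found for 23 of 29 genes (79.3%), against 41.5% of all genes with a window. Both windows of Pklr and those of Tpi1 and Eno2 held none. These are matches of letters only, and no binding was measured.

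On day 4, 23 of the 30 genes lay above background, on day 7 24 and on day 21 26, against 53.7%, 54.1% and 56.3% of all genes. Background here is the 95th percentile of 1105 olfactory receptor genes, which lay at a log2 signal of 6.06, 6.06 and 6.03 on the 3 days. Pfkfb4, Fbp1, G6pc and Pck1 were above it on no day. Afp itself was below it on day 4, with a mean of 5.72, and stood at 10.60 on day 7 and 13.07 on day 21, so the marker used for the sort was not seen in the RNA of the day 4 cells. All 8 visceral endoderm markers were above background on days 7 and 21 and 4 of 8 on day 4. Without Afp, the sort reporter, the other 7 had summed signals (added on the linear scale) of 531 to 676, then 15062 to 16122, then 4752 to 5229, and all 7 were called higher from day 4 to 7 and lower from day 7 to 21. With Afp the sums were 592 to 725, 16549 to 17660 and 12639 to 14240. Stroma markers (Dcn, Lum, Col1a1 and others) summed to 1091 to 1196 on day 4, 649 to 832 on day 7 and 6875 to 14314 on day 21, with 5, 5 and 7 of 7 above background. The part of these shifts in the results below was not tested, and in such bulk samples fewer cells of a type and less RNA per cell cannot be told apart. Arrays of a day correlated at 0.981 to 0.990 over all genes.

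Between days 4 and 7 most genes of the group that changed went up. Of the 30, 13 were called higher and 2 lower, at an adjusted p under 0.05 in the limma fit over all genes, where 6.98% of all genes were called higher and 6.47% lower. Between days 7 and 21, 13 were called higher and 5 lower, against 12.4% and 10.7% of all genes. Between days 4 and 21, 18 were called higher and 1 lower, against 15.0% and 14.1%. The median log2 change of the 30 was 0.23, 0.31 and 0.59 in the 3 comparisons, and that of all genes was -0.01, -0.03 and -0.03. The first 2 comparisons share the day 7 arrays and the last shares arrays with each of them. The labels do not say that arrays of a day came from separate cultures, so p-values measure the spread between these arrays, which may be technical.

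When the arrays were centred on 5 reference genes (Tbp, Polr2a, Ywhaz, Sdha and Rplp0), whose means changed by -0.84 to -0.03 from day 4 to day 21, the median change of all genes became 0.19, 0.17 and 0.37. The share of called genes that were higher then became 81.2%, 80.6% and 91.2%, in place of 51.9%, 53.7% and 51.6%. Under that centring 0, 2 and 0 of the 30 were called lower, beside 729, 1130 and 1086 of all 22180 genes. The 2 are Eno3 and Ldha, between days 7 and 21. Falls described below are relative to the bulk of genes, and those of the 30 genes that lose their call under this centring are named. The centred fit covered all genes, but for genes outside the 30 only counts of calls were kept. Which of their falls lose the call is therefore not stated.

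**Figure D1:**
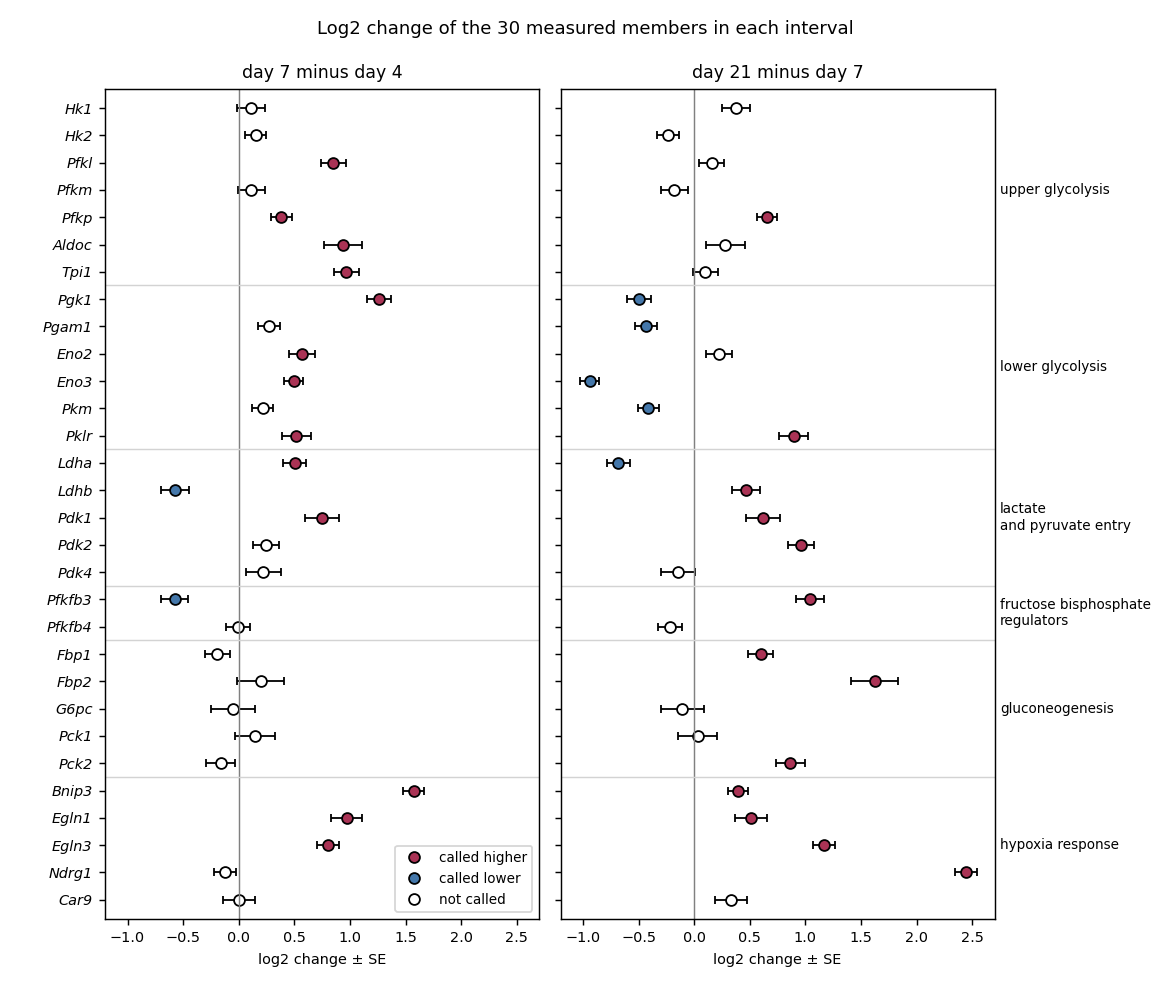
Log2 change (horizontal axis) ± SE from the limma fit for the 30 measured genes, ordered by role, from day 4 to day 7 (left) and from day 7 to day 21 (right). Filled points passed an adjusted p under 0.05. Hypoxia response genes and upper glycolysis hold no called fall in either panel, and lower glycolysis holds 4 of them on the right.

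Among the 30, the largest single change of each comparison was that of a hypoxia response gene (Bnip3, then Ndrg1 in the other two). Of 5, 3 were called higher on day 7 than on day 4, and 4 on day 21 than on day 7. Between days 4 and 21, 4 were called higher, and none was called lower in any comparison. Over all genes the shares called higher were 6.98%, 12.4% and 15.0%, and those called lower 6.47%, 10.7% and 14.1%. With 5 genes, none lower is near those shares. Bnip3, a mitochondrial protein of mitophagy, read 5.88, 5.71 and 5.91 on the day 4 arrays, 7.41, 7.38 and 7.43 on the day 7 arrays and 7.79, 7.85 and 7.77 on the day 21 arrays. It went from below background to well above it by day 7, and no 2 days overlapped. The log2 change was 1.57 ± 0.09 (SE) from day 4 to 7 (2.97-fold in signal, adjusted p = 1.8e-06) and 0.40 ± 0.09 from day 7 to 21 (adjusted p = 0.00995). Since the day 4 mean is at the background, the first of these is a change of array signal from a floor.

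The prolyl hydroxylases Egln1 and Egln3, which mark hypoxia-inducible factors for destruction, rose in both intervals. Egln1 gave 7.24, 7.21 and 7.56 on day 4, 8.37, 8.26 and 8.28 on day 7, and 8.96, 8.95 and 8.54 on day 21. The days did not overlap, although the third day 21 array lay nearer to day 7 than the other two did. Its log2 change was 0.97 ± 0.14 (adjusted p = 0.00092) and then 0.51 ± 0.14 (adjusted p = 0.023). The second call was lost without day 7 replicate 2 or 3 (adjusted p = 0.0692 and 0.0664) and without day 21 replicate 1 or 2 (0.0831 and 0.0827). For Egln3 the signals were 8.23, 8.16 and 8.13 on day 4, then 9.08, 8.96 and 8.88 on day 7, and 10.10, 10.28 and 10.05 on day 21. This gene climbed in separated steps, by 0.80 ± 0.10 (adjusted p = 0.00035) and 1.17 ± 0.10 (adjusted p = 1.5e-05), to 3.92-fold its day 4 signal.

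Ndrg1, a stress-responsive gene of differentiation, behaved differently from these 3. It read 8.20, 8.04 and 8.22 on day 4, 8.10, 7.98 and 8.00 on day 7 and 10.35, 10.58 and 10.50 on day 21. Days 4 and 7 overlapped and day 21 stood far above both. From day 7 to 21 the log2 change was 2.44 ± 0.10 (5.44-fold, adjusted p = 9.2e-08), the largest among the 30 genes in any comparison, and from day 4 to 7 it was -0.12 ± 0.10 (adjusted p = 0.55). Its dimmer probe set gave 1.28 ± 0.13 for the later interval, in the same direction. Car9, a carbonic anhydrase often used as a hypoxia marker, was not called, and its brighter probe set gave 0.33 ± 0.15 from day 7 to 21 (adjusted p = 0.14). The dimmer one, with means of 4.84, 4.83 and 6.04, gave 1.21 ± 0.25 (adjusted p = 0.0049), and the mean of the probe sets gave 0.77 (adjusted p = 0.00617), so the probe sets disagree on the call.

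**Figure D2:**
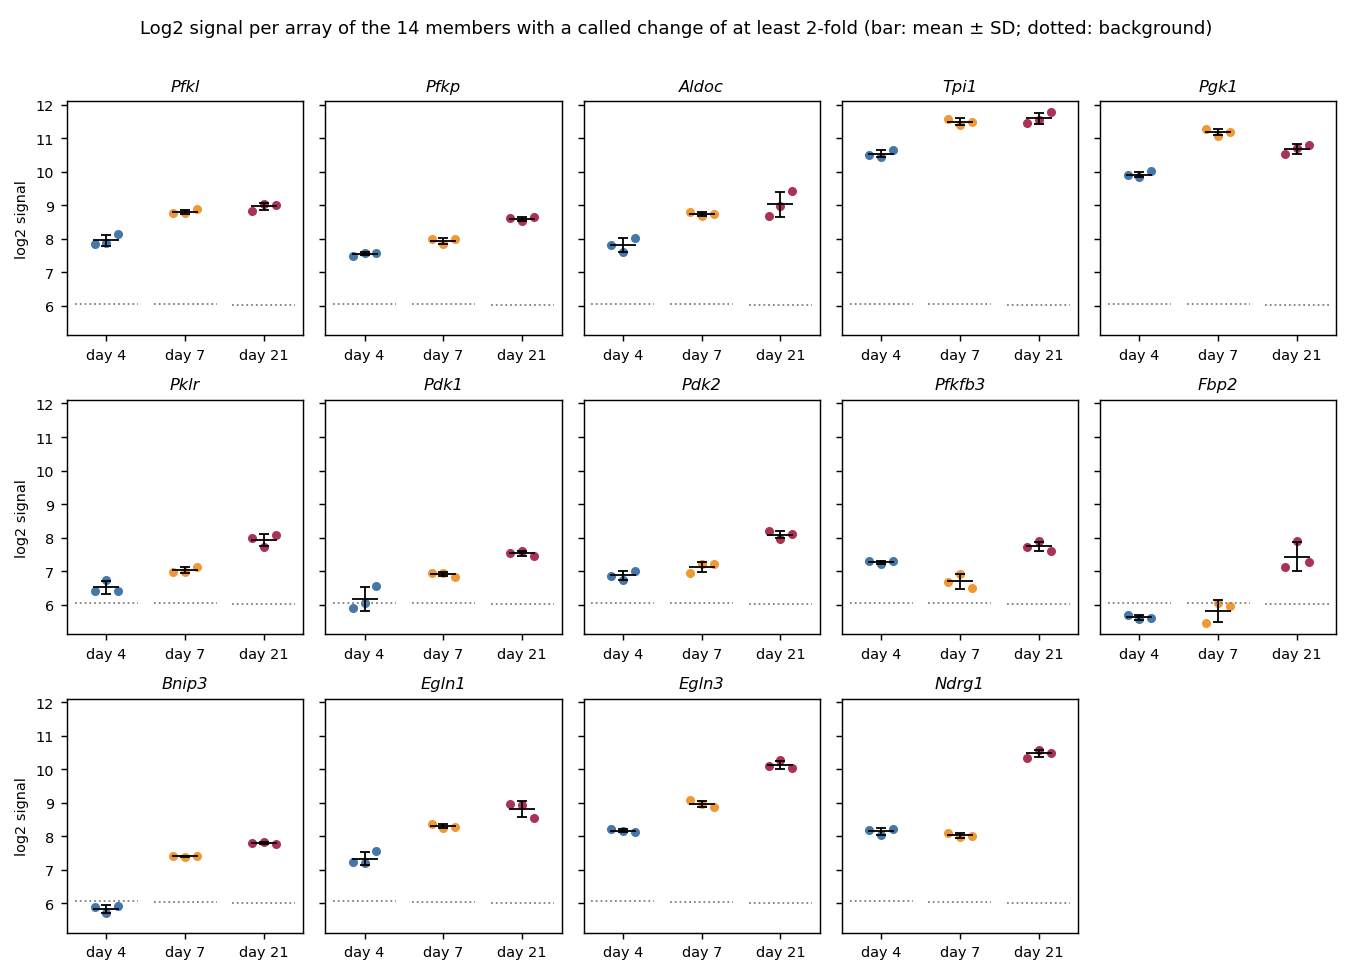
Log2 signal of each array (points), mean and SD (bars) by day for the 14 genes with a called change of at least 1 on the log2 scale. Dotted lines give the olfactory receptor background of each day. Bnip3 and Fbp2 start below the line, Ndrg1 and Pdk2 stay level until day 7, and Pgk1 peaks on day 7.

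Upper glycolysis runs from glucose to the triose phosphates. Of its 7 genes, 4 were called higher between days 4 and 7, 1 between days 7 and 21 and 5 between days 4 and 21. None was called lower. The shares over all genes were 6.98%, 12.4% and 15.0% higher, and 6.47%, 10.7% and 14.1% lower. The 1 of 7 and the absence of called falls are near those shares. Pfkl, liver phosphofructokinase, read 7.85, 7.87 and 8.15 on day 4, 8.76, 8.78 and 8.88 on day 7 and 8.84, 9.04 and 9.01 on day 21. All its day 7 arrays were above all its day 4 arrays, and days 7 and 21 overlapped. The early change was 0.85 ± 0.11 (adjusted p = 0.00049) and the later one 0.16 ± 0.11 (adjusted p = 0.38). Pfkp, the platelet form, measured 7.50, 7.58 and 7.59, then 7.99, 7.84 and 7.99, then 8.61, 8.52 and 8.65. Its days were separate throughout, with the larger step in the second interval: 0.38 ± 0.09 (adjusted p = 0.019) and 0.66 ± 0.09 (adjusted p = 0.00044). The early call of Pfkp did not hold without day 4 replicate 1 or 2 (adjusted p = 0.0683 and 0.0535) or day 7 replicate 1 or 3 (0.0723 and 0.0702). Pfkm, the muscle form, was called in no comparison, with changes of 0.11, -0.18 and -0.07.

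Aldoc, an aldolase best known from brain, gave 7.81, 7.59 and 8.02 on day 4, 8.79, 8.69 and 8.75 on day 7 and 8.69, 8.97 and 9.41 on day 21. Day 4 lay below all other arrays, and day 21 was spread over 0.36 (SD) around a mean not called different from day 7. The first step was 0.94 ± 0.17 (adjusted p = 0.0045). Markers of neural cells, which also express Aldoc and Eno2, had summed signals of 1217 to 1664, 826 to 856 and 575 to 671, and 5 of 7 were above background on each day. Single markers differed: 1 was called higher (Pax6) and 3 lower from day 4 to 7, and 2 higher (Map2 and Gfap) and 3 lower from day 7 to 21. Their part was not tested. Tpi1, which interconverts the triose phosphates, read 10.50, 10.44 and 10.65, then 11.59, 11.40 and 11.50, then 11.47, 11.55 and 11.78. It stepped up once, by 0.97 ± 0.11 between days 4 and 7 (adjusted p = 0.00021), and days 7 and 21 overlapped. Hk1 and Hk2 are hexokinases, which trap glucose in the cell. Hk1 was below background on days 4 and 7 and was called higher only from day 4 to 21 (0.48 ± 0.13, adjusted p = 0.015), a call lost without day 4 replicate 3 (adjusted p = 0.06) or day 21 replicate 1 (0.0568). For Hk2 the changes were 0.15, -0.24 and -0.09, none of them called.

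Lower glycolysis, from the triose phosphates to pyruvate, rose and then partly fell. Of 6 genes, 4 were called higher on day 7 than on day 4, and between days 7 and 21 4 were called lower and 1 higher. Over all genes, 6.98% were called higher in the first interval, and 10.7% lower and 12.4% higher in the second. The 1 of 6 is near that last share. Pgk1, the first step that returns ATP, read 9.89, 9.84 and 10.01 on day 4, 11.26, 11.07 and 11.20 on day 7 and 10.53, 10.71 and 10.80 on day 21. No days overlapped, day 7 was highest and day 21 lay between. The rise was 1.26 ± 0.11 (2.40-fold, adjusted p = 2.3e-05). It then fell by 0.50 ± 0.11 on the log2 scale (adjusted p = 0.0065), a call lost with reference-gene centring (fell by 0.29, adjusted p = 0.111).

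Eno3, the muscle enolase, followed the same course and ended below its start. It averaged 8.40 ± 0.04 (SD), 8.89 ± 0.05 and 7.95 ± 0.02 on the 3 days, without overlap. The change was 0.49 ± 0.09 (SE) and then a fall by 0.94 ± 0.09 (adjusted p = 2.2e-05), which is 1.92-fold lower. The net fall of 0.44 from day 4 to 21 (adjusted p = 0.0026) was the single called fall of that comparison, and it was lost with reference-gene centring (fell by 0.04, adjusted p = 0.729). Cardiac and skeletal muscle markers had summed signals of 783 to 888, 2755 to 3111 and 1122 to 1261, also highest on day 7, with 4, 6 and 7 of 9 above background. Tnnc1, at means of 7.68, 10.89 and 8.41, made up most of the day 7 sums. Tnnt2 was highest on day 21, at means of 7.13, 8.38 and 8.53. From day 4 to 7, 4 of the 9 were called higher and none lower. Myh6, Myh7, Ckm and Actn2 were called in no comparison. Ckm and Actn2 were below background on each day, and the part of muscle-like cells in the Eno3 values was not tested.

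Pkm, the pyruvate kinase of most tissues, and Pgam1, a phosphoglycerate mutase, fell between days 7 and 21, by 0.41 ± 0.09 (adjusted p = 0.0084) and 0.43 ± 0.10 (adjusted p = 0.0083). Both calls were lost with reference-gene centring, at adjusted p = 0.197 and 0.164. The dimmer Pgam1 probe set was called in both intervals, 0.50 ± 0.15 up and then 0.54 ± 0.15 down, where the brighter one missed the threshold in the first (0.27 ± 0.10, adjusted p = 0.10). Eno2, the neuronal enolase, rose by 0.57 ± 0.12 from day 4 to 7 (adjusted p = 0.0075) and was not called after that (0.22 ± 0.12).

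Pklr, pyruvate kinase of liver and red cells, was the only gene of lower glycolysis called higher in the second interval. It read 6.41, 6.73 and 6.40 on day 4, 6.99, 6.99 and 7.12 on day 7 and 8.00, 7.71 and 8.07 on day 21. The 3 days were separate and ordered upwards. From day 7 to 21 it rose by 0.90 ± 0.13 (adjusted p = 0.00053). The smaller step from day 4 to 7, 0.52 ± 0.13 (adjusted p = 0.022), lost its call when any of 5 arrays was left out: day 4 replicate 1 or 3 (adjusted p = 0.0834 and 0.0867) or day 7 replicate 1, 2 or 3 (0.0555, 0.0508 and 0.0842). Hepatic markers (Alb, Ahsg, Vtn, Fgb, Serpina1a, and Afp and Ttr, which yolk sac endoderm also makes) had summed signals of 299 to 324, 3153 to 3374 and 14010 to 16463, with 0, 4 and 6 of 7 above background. Without Afp the sums were 240 to 275, 1614 to 1736 and 6123 to 7438. Alb and Ahsg were below background until day 7, Serpina1a stayed below it on each day, and Ttr was called lower on day 21 than on day 7. Erythroid markers, of which 3 of 7 were measured, summed to 215 to 278, 187 to 222 and 152 to 161, and the part of either cell type in the Pklr values was not tested.

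At the branch to lactate, the subunit genes of lactate dehydrogenase moved in opposite directions in both intervals. Ldha, the subunit favoured in glycolytic tissue, read 6.99, 7.10 and 7.09 on day 4, 7.73, 7.54 and 7.42 on day 7 and 6.85, 6.90 and 6.89 on day 21. Ldhb, favoured in oxidative tissue, read 8.47, 8.56 and 8.54, then 8.08, 7.72 and 8.04, then 8.36, 8.29 and 8.59. Every day 7 array was above all others for Ldha and below all others for Ldhb. Ldha rose by 0.50 ± 0.10 (adjusted p = 0.0081) and fell by 0.68 ± 0.10 (adjusted p = 0.00072). Ldhb fell by 0.58 ± 0.12 (adjusted p = 0.011) and rose by 0.47 ± 0.12 (adjusted p = 0.020). The calls of Ldhb are the less firm: the fall was lost with reference-gene centring (adjusted p = 0.0925), and the rise without day 7 replicate 2 (0.0712), without day 21 replicate 3 (0.061) and with only the arrays of those days (0.0512). Day 21 was called different from day 4 for neither gene (-0.18 and -0.11).

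Of the 3 listed kinases that switch off pyruvate dehydrogenase, Pdk1 and Pdk2 rose. Pdk1, a known target of hypoxia-inducible factors, read 5.90, 6.05 and 6.56 on day 4, 6.96, 6.95 and 6.84 on day 7 and 7.54, 7.59 and 7.46 on day 21. Only the third day 4 array was clearly above background on that day, and the 3 days were separate. It changed by 0.75 ± 0.15 (adjusted p = 0.0079) and 0.62 ± 0.15 (adjusted p = 0.014), the second narrowly lost without day 7 replicate 3 (0.0508). Its other probe set gave similar sizes, 0.75 ± 0.29 and 0.69 ± 0.29, that were not called (adjusted p = 0.14 and 0.12). Pdk2, the most widely expressed of these kinases, gave 6.87, 6.74 and 7.01, then 6.94, 7.20 and 7.22, then 8.19, 7.97 and 8.09. Days 4 and 7 overlapped, and day 21 stood above both by a log2 change of 0.96 ± 0.12 over day 7 (adjusted p = 0.00017). Pdk4, a kinase of the fasted state, was called nowhere, with changes of 0.22, -0.14 and 0.08.

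Pfkfb3 and Pfkfb4 set the level of the metabolite that activates phosphofructokinase and restrains gluconeogenesis. Pfkfb3 read 7.30, 7.22 and 7.30 on day 4, 6.67, 6.91 and 6.49 on day 7 and 7.71, 7.89 and 7.60 on day 21. Day 7 was lowest and day 21 highest, with no overlap. It fell by 0.58 ± 0.12 (adjusted p = 0.011), a call lost with reference-gene centring (fell by 0.38, adjusted p = 0.054), and then rose by 1.04 ± 0.12 (2.06-fold, adjusted p = 0.00015). The net rise of 0.47 from day 4 to 21 (adjusted p = 0.016) was lost without day 4 replicate 2 (0.0575) or day 21 replicate 2 (0.0649). Pfkfb4 stayed below background on all days and was not called.

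None of the 5 gluconeogenesis genes was called between days 4 and 7, and 3 were called higher on day 21 than on day 7. Over all genes, 6.98% were called higher and 6.47% lower in the first interval, and no call among 5 is near those shares. In the second, 12.4% of all genes were called higher. Fbp2, the muscle form of fructose bisphosphatase, read 5.70, 5.56 and 5.60 on day 4, 5.44, 6.04 and 5.96 on day 7 and 7.14, 7.91 and 7.26 on day 21. Days 4 and 7 lay at or below background and overlapped, and all day 21 arrays were above it. The later change was 1.62 ± 0.21 (3.08-fold in signal, from a floor, adjusted p = 0.00025). Of the 9 muscle markers, 3 (Tnnc1, Actc1 and Myl7) were called lower on day 21 than on day 7 and none higher, and their part was not tested. Pck2, the mitochondrial carboxykinase, averaged 6.91 ± 0.24 (SD), 6.74 ± 0.12 and 7.61 ± 0.12, and only day 21 stood apart, with a rise by 0.87 ± 0.13 (SE, adjusted p = 0.00085). The liver forms were not detected above background. Fbp1 was called higher on day 21 than on day 7 (0.60 ± 0.11, adjusted p = 0.0030) but averaged 5.58 there, under the background, and its call against day 4 (0.40 ± 0.11, adjusted p = 0.021) was lost without day 4 replicate 1 or 3 (0.0593 and 0.0657) or day 21 replicate 1 or 3 (0.0641 and 0.0592). G6pc, which releases free glucose from the liver cell, and Pck1, the cytosolic carboxykinase, gave changes from -0.16 to 0.18 with no call. Markers of kidney and gut, whose cells also make these enzymes, had 2 of 6 above background on each day. Their summed signals were 525 to 1100, 1962 to 2163 and 797 to 994. Those above background were Lrp2 and Vil1, both called higher from day 4 to 7 and lower from day 7 to 21. Slc34a1, Cdx2, Slc5a1 and Alpi were below background on each day and called in no comparison.

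Signals of different probe sets cannot be set against each other, but the difference between 2 isozymes on the same array can be compared between days, and the scaling of the arrays cancels in it. Of 14 isozyme pairs, 11 were measured on both sides. The pairs were chosen with earlier results of these data known, and each of the 11 holds at least 1 gene called above. The test of their differences is therefore no separate support for those calls. An exact permutation test of the F statistic over the 1680 assignments of 9 arrays to days, for which 0.00357 is the smallest p possible, gave Benjamini-Hochberg values over the 11 pairs of at most 0.0429. The same measure over other pairs of genes was not computed, so whether the count is particular to isozymes is not known.

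Pkm minus Pklr shrank from 4.69 ± 0.19 (SD, n = 3 arrays) to 4.39 ± 0.06 and 3.08 ± 0.19 (exact p = 0.00357, adjusted 0.0098). The day 21 arrays lay apart from the rest, toward the liver and red cell form. Ldha minus Ldhb went from -1.47 ± 0.02 to -0.39 ± 0.23 and back to -1.54 ± 0.16 (exact p = 0.025, adjusted 0.031), so day 7 alone was shifted, toward Ldha. Within the phosphofructokinases, Pfkl minus Pfkp was 0.40 ± 0.14, 0.87 ± 0.08 and 0.37 ± 0.14 (exact p = 0.029, adjusted 0.031), and Pfkl minus Pfkm grew from 1.73 ± 0.10 to 2.46 ± 0.22 and 2.80 ± 0.22 (exact p = 0.011, adjusted 0.024). The liver form thus gained on the muscle form mainly by day 7, with Pfkm near background at means of 6.23, 6.34 and 6.17. The liver form gained on the platelet form on day 7 and lost that by day 21. Hk1 minus Hk2 moved from -1.20 and -1.24 to -0.63 on day 21 (exact p = 0.029, adjusted 0.031), with Hk1 near background.

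Egln1 minus Egln3 was -0.84 ± 0.24, -0.67 ± 0.06 and -1.33 ± 0.18 (exact p = 0.014, adjusted 0.026), a shift toward Egln3 on day 21 that missed the threshold without day 21 replicate 3 (adjusted 0.0589). Pdk1 minus Pdk4 rose to 0.53 ± 0.21 on day 7 and 1.29 ± 0.11 on day 21 (exact p = 0.00357, adjusted 0.0098). Pdk4 lay near background, at means of 6.17, 6.39 and 6.24. Pdk1 minus Pdk2 was highest on day 7, at -0.20 ± 0.20, with the least firm test of the 11 (exact p = 0.043, adjusted 0.043). It missed the threshold when any array except day 4 replicate 3 was left out (adjusted 0.05 without day 7 replicate 3, up to 0.196 without day 7 replicate 1), and with the mean of both Pdk1 probe sets (0.189). The pairs Pfkfb3 minus Pfkfb4 (1.69, 1.12 and 2.38), Fbp1 minus Fbp2 (-0.44, -0.83 and -1.85) and Pck1 minus Pck2 (-1.12, -0.81 and -1.64) each have a partner below background, so their shifts rest in part on signals at a floor. Fbp2 was itself below background on days 4 and 7. Pck1 minus Pck2 missed the threshold without day 21 replicate 1 or 2 (adjusted 0.0629 and 0.0893).

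**Figure D3:**
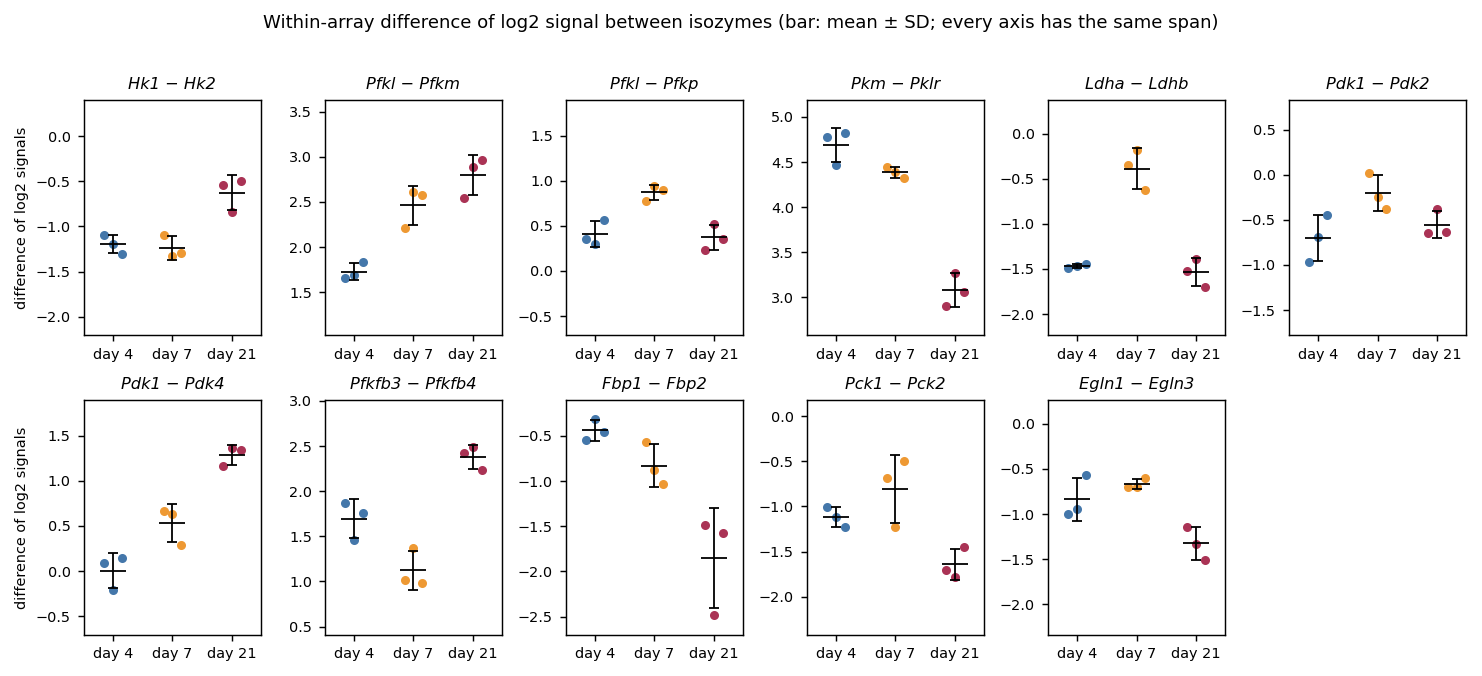
Difference between the log2 signals of 2 isozymes on the same array (points), with mean and SD by day, for the 11 measured pairs. Every vertical axis spans the same number of log2 units. The day 7 arrays stand apart for Ldha minus Ldhb, and the day 21 arrays for Pkm minus Pklr.

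Further genes of these pathways came from lists that do not hold the 30, with 85 of 94 measured. Among the 32 of glycolysis and pyruvate entry, 8 were called higher and 1 lower from day 4 to 7, 3 and 4 from day 7 to 21, and 6 and 7 from day 4 to 21. The last 2 of these pairs of counts are near the shares over all genes given above (12.4% and 10.7%, 15.0% and 14.1%). The glucose carriers of the early embryo peaked on day 7. Slc2a1 read 12.08, 11.66 and 11.90 on day 4, 12.95, 12.94 and 13.00 on day 7 and 12.00, 12.08 and 12.08 on day 21. Its day 7 arrays were above all others, with a change of 1.08 ± 0.11 (adjusted p = 0.00011) and a fall by 0.91 ± 0.11 (adjusted p = 0.00020). Slc2a3 rose by 1.12 ± 0.13 and fell by 1.60 ± 0.13 (adjusted p = 8.9e-06). Slc16a1, a lactate and pyruvate carrier, rose by 1.40 ± 0.11 and fell by 3.13 ± 0.11 (adjusted p = 2.6e-08), to well under its day 4 signal. With reference-gene centring, 3 of the 85 were called lower from day 7 to 21 in place of 10. Which genes those are was not recorded.

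The glucose carrier of liver, Slc2a2, ran opposite to these in the second interval. It read 5.72, 5.60 and 5.32 on day 4, 6.09, 6.40 and 6.29 on day 7 and 8.69, 8.95 and 8.88 on day 21. It left background on day 7 and rose by a further 2.58 ± 0.13 (5.98-fold, adjusted p = 3.7e-07) by day 21. Slc16a7, another monocarboxylate carrier, was below background until day 7 and rose by 2.39 ± 0.19 after it (adjusted p = 7.7e-06). Hkdc1, a hexokinase-like gene, rose by 1.45 ± 0.16 from day 4 to 7 (adjusted p = 0.00013) and was not called after that. Gapdh, the triose phosphate dehydrogenase between Tpi1 and Pgk1, was level on its brightest probe set (0.04 ± 0.09 and -0.03 ± 0.09, adjusted p = 0.88 and 0.85), while its dimmest was called lower from day 7 to 21 (fell by 0.42 ± 0.11, adjusted p = 0.020).

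**Figure D4:**
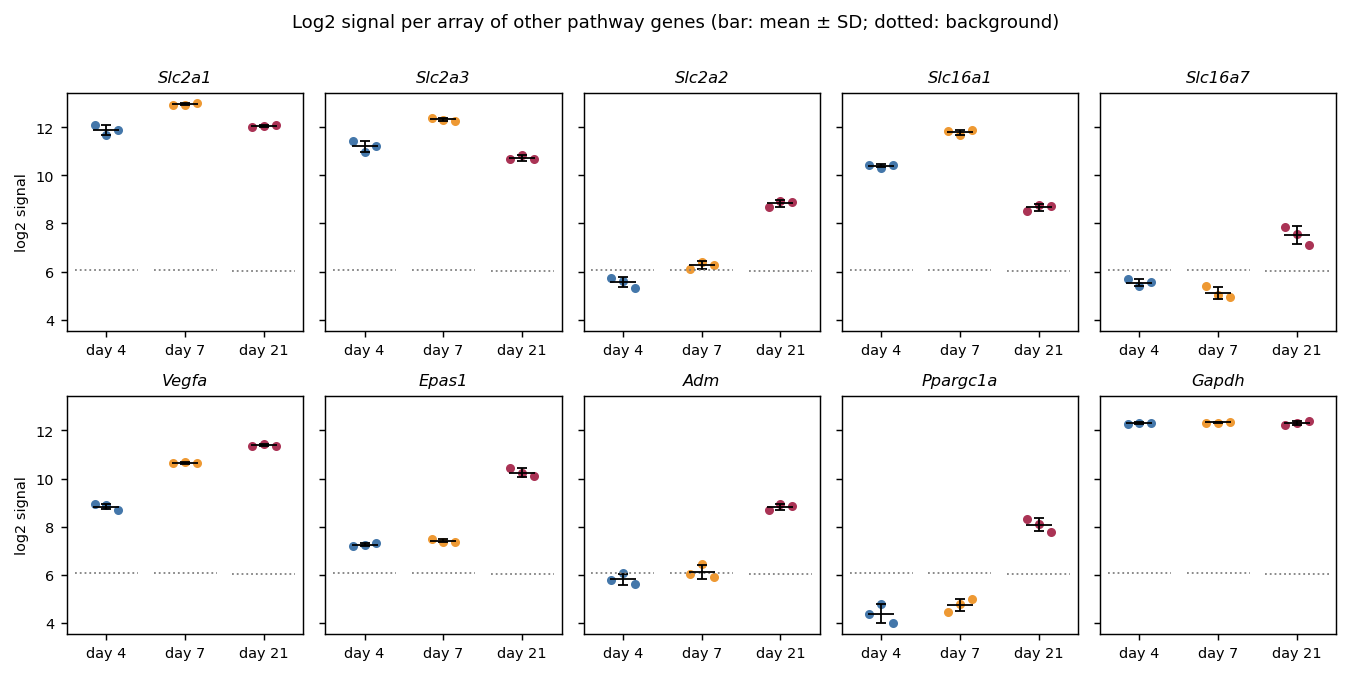
Log2 signal of each array (points), with mean and SD (bars) by day, for 10 pathway genes outside the list of 30. Dotted lines give background. Slc2a1, Slc2a3 and Slc16a1 peak on day 7, Slc2a2, Slc16a7, Epas1, Adm and Ppargc1a are highest on day 21, and Gapdh is level.

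Of 19 further gluconeogenesis genes, 3 were called higher and 2 lower from day 4 to 7, 5 and 3 from day 7 to 21, and 7 and 1 from day 4 to 21, beside shares over all genes of 6.98% and 6.47%, 12.4% and 10.7%, and 15.0% and 14.1%. Ppargc1a, a coactivator that drives the gluconeogenic programme in liver, went from 4.38, 4.77 and 3.99 on day 4 and 4.46, 4.77 and 4.99 on day 7 to 8.32, 8.12 and 7.78 on day 21. The first 6 arrays were below background and the last 3 far above it, with a log2 change of 3.34 ± 0.21 from that floor (adjusted p = 1.7e-06). Gpt2, an alanine transaminase, fell by 0.56 ± 0.12 and then rose by 1.30 ± 0.12 (adjusted p = 2.0e-05). Sik1, a kinase that restrains the programme, rose by 1.25 ± 0.10 and Foxo1, a transcription factor of fasting, by 0.68 ± 0.10 in the second interval, while the dimmer Foxo1 probe set, below background, gave -0.18 ± 0.13. Between days 4 and 7 Pcx, which makes oxaloacetate from pyruvate, fell by 1.05 ± 0.16 (adjusted p = 0.0012), and G6pc3, the ubiquitous glucose phosphatase, and Slc37a4, its substrate carrier, rose by 0.74 ± 0.11 and 0.56 ± 0.13.

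Of 34 further hypoxia response genes, 6 were called higher and 1 lower from day 4 to 7, 12 and 3 from day 7 to 21, and 17 and 3 from day 4 to 21. The shares over all genes were 6.98% and 6.47%, 12.4% and 10.7%, and 15.0% and 14.1%. Vegfa, the angiogenic growth factor, read 8.92, 8.88 and 8.70 on day 4, 10.63, 10.68 and 10.64 on day 7 and 11.36, 11.43 and 11.35 on day 21. As for Bnip3 and Egln3, its days were separate and ordered upwards, with changes of 1.82 ± 0.09 (adjusted p = 7.9e-07) and 0.73 ± 0.09 (adjusted p = 0.00026). Epas1, a hypoxia-inducible factor of endothelium, kidney and liver, stayed at 7.17 to 7.47 over the 6 arrays of days 4 and 7. It stood at 10.44, 10.21 and 10.10 on day 21, a rise by 2.84 ± 0.11 (7.18-fold, adjusted p = 5.6e-08). Endothelial markers had summed signals of 607 to 849, 606 to 719 and 310 to 423 and 3 of 4 above background on each day. Single markers differed from day 4 to 7, with 2 called higher (Pecam1 and Cdh5) and 1 lower (Kdr). From day 7 to 21 these 3 were called lower and none higher. The part of such cells in the Epas1 values was not tested.

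In the same interval Adm, a vasodilator peptide, rose by 2.71 ± 0.16 and Errfi1, an inhibitor of growth factor receptors, by 2.30 ± 0.12 (adjusted p = 3.2e-07). Lox, which cross-links collagen, rose by 2.80 ± 0.29 (adjusted p = 5.3e-05) from below background, beside the stroma markers given above, whose part in it was not tested. Between days 4 and 7, Stc2 rose by 0.93 ± 0.14 and Pygl, liver glycogen phosphorylase, by 0.76 ± 0.15, while Tfrc, the transferrin receptor, fell by 0.99 ± 0.13 (adjusted p = 0.00062). Hif1a is left without a direction, because its probe sets were called in opposite directions between days 4 and 21 (-0.51 and 0.51); the counts above hold the brighter, and the dimmer lay below background.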

How the data were processed

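The authors deposited log2 signals for each probe set. Per the submitters' processing notes, Affymetrix Expression Console and RMA (background subtraction, quantile normalization and probe summary) made them; the sources used here give neither versions nor a genome build. RMA brings all arrays to 1 distribution, so a shift of all transcripts together is largely removed. Of 34365 probe sets, 23521 carry 1 symbol, 1814 several and 9030 none here, and the brightest per gene was kept, for 22180 genes in all (1082 had a choice of probe sets). Array medians lay at 5.88 to 5.98; there is no counting depth, and precision rests on the number of arrays.

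In limma 3.58.1 (R 4.3.3; lmFit, eBayes, two-sided), 1 model with a mean for each day took in the 9 arrays, and Benjamini-Hochberg adjustment ran over all genes of each comparison. Calls needed an adjusted p under 0.05 and no minimum fold. The fit and the exact permutation test were tested on simulated data. Members, pathway lists, marker lists and isozyme pairs were chosen with earlier results of these data known. Values of every array are given for the 14 members with a called log2 change of at least 1 and a signal above background, and up to 4 called genes per further list and comparison, plus Vegfa, Slc2a1, Slc2a3 and Gapdh, are named. Deviations of arrays with the same replicate number correlated at -0.0541 to 0.263, not over 0.1 in every pair, so the arrays were not treated as paired; between days 7 and 21 the values were 0.078, 0.139 and 0.263. Alternatives covered the choice of probe set, scaling, dim genes, the model, a minimum fold and each array left out.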

Additional observations from a re-analysis of the deposited data

How the results depend on the processing

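With centring on reference genes, members called lower numbered 0 (day 7 against 4), 2 (21 against 7) and 0 (21 against 4), other pathway genes called higher 28, 33 and 58, and those called lower 3 (21 against 7) and 1 (21 against 4), where the counts as reported for these 85 genes were 17, 20 and 30 higher and 4, 10 and 11 lower. Of all 22180 genes, 3155, 4683 and 11241 were called higher under this centring and 729, 1130 and 1086 lower. Hk2 reversed there for day 21 against 4, to 0.3154 (adjusted p = 0.0316) from -0.09, which was not called. With a minimum of 2-fold, members called were 2 higher and 0 lower, 4 and 0, and 12 and 0 in the 3 comparisons, and other pathway genes 5 and 1, 13 and 2, and 15 and 1. All genes called at that minimum were 454 and 302, 1030 and 400, and 1207 and 569 of 22180. Other pathway genes called lower on day 7 were 8 with dim genes left out and 7 with limma's trend and robust options, which called 2 members lower for day 21 against 4. With 1 array left out, other pathway genes called lower numbered 6 to 11 for day 21 against 7 (6 without day 7 replicate 1 or day 21 replicate 2) and 7 to 10 for day 21 against 4 (7 without day 4 replicate 3). Isozyme pairs past the threshold were 9 to 11. With the replicate block the members' counts were again 13 and 2, 13 and 5, and 18 and 1. Of 708 values of single members under 8 alternatives, 683 stayed called in the same direction or stayed not called, 7 lost a call and 17 gained one. A change of sign was counted only where the gene was called in either fit, so values not called may have changed sign. Of 810 with an array left out, 785 were unchanged in that sense and 24 lost the call. The cause of these differences was not tested.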

Other observations

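Other marker lists that belong to no comparison above were read in the same cells. Pluripotency markers (Pou5f1, Nanog, Zfp42, Dppa5a and Esrrb) had summed linear signals of 590 to 797 on day 4, 425 to 490 on day 7 and 277 to 338 on day 21, with 3, 2 and 2 of 5 above background. The 2 measured proliferation markers summed to 3113 to 3315, 2551 to 2744 and 1771 to 2436, both above background on every day. Leukocyte markers summed to 399 to 491, 672 to 808 and 872 to 943, with 1, 1 and 2 of 4 above background. Cd68, at means of 8.36, 9.26 and 9.36, made up most of these sums, and Csf1r was above background on day 21 only. Ptprc and Lyz2 were below it on each day. Ptprc was called in no comparison, and Lyz2 was called higher on day 21 than on day 7.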
